A study of Mus musculus with 4 samples.

Results

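The keratins of the mammary gland were examined in tumour-derived breast cancer cells of the mouse that were labelled as lacking or carrying the p21-activated kinase Pak1. The set held 10 genes: Krt5, Krt14, Krt15 and Krt17 (basal keratins), Krt6a and Krt6b (inducible keratins), and Krt7, Krt8, Krt18 and Krt19 (keratins of simple and luminal epithelium). Every non-control array probe carrying one of these gene names was taken, which gave 13 probes of 39429, or 10 gene names of 31829. For a gene with more than 1 probe, its brightest probe gives its value and the others are reported beside it.

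All 4 samples were cells grown out of tumours of MMTV-Neu mice, which carry the Neu oncogene (Her2, gene Erbb2) under the promoter of mouse mammary tumour virus, active in mammary epithelium. There were 2 samples labelled Pak1-/- and 2 labelled Pak1+/+, drawn from different tumours by the design text and called cell lines in the methods. Both groups were kept in low-calcium medium with horse serum, and before harvest they spent 3 h without serum and then received epidermal growth factor (EGF) for 15 min. Total RNA was labelled with a single dye (Cy3) and hybridised to a mouse array of 60-base probes. The question behind the comparison was which genes differ between cells with and without Pak1. Its p-values measure only the spread between these 4 samples.

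Keratins are the intermediate filament proteins of epithelial cells. A type I (acidic) keratin always pairs with a type II (basic) keratin to build a filament, and the pairs used differ between cell layers. In the mammary gland the luminal cells that line the ducts are known for Krt8 with Krt18 and Krt19, together with Krt7, while the basal and myoepithelial cells around them are known for Krt5 with Krt14 and for Krt17. Krt15 is a basal keratin of stratified epithelia, and Krt6a and Krt6b are induced in skin by wounding and stress. In the mouse the type I genes lie in a cluster on chromosome 11, and the type II genes lie in a cluster on chromosome 15 together with Krt18, a type I gene.

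The label could not be checked from the targeted gene. The Pak1 probe read 12.21 and 12.25 on the normalized log2 scale on the arrays labelled Pak1-/- against 12.04 and 12.04 on those labelled Pak1+/+, a difference of 0.19 (SE 0.07, adjusted p = 0.070 in limma), so it was not lower where the gene should be missing. Whether the probe lies in the deleted part of the gene is not given in the sources used here, and every direction here follows the labels. Erbb2 was read at 11.91 and 11.95 against 12.26 and 12.21, lower by 0.31 on the arrays labelled Pak1-/- (SE 0.07, adjusted p = 0.0201 in limma). Whether this probe for mouse Erbb2 also reads the Neu transgene was not determined. All arrays lay on 1 slide, with each group in neighbouring positions, so genotype cannot be told apart from position. Median spot intensity was 322 to 331 over a local background of 39.0 to 42.0, and 62.2 to 70.4% of probes were well above background, with the lowest share on Pak1+/+ replicate 2. Epcam, an adhesion protein of epithelial cells, was well above background on all 4 arrays (15.01 and 15.07 against 15.33 and 15.23, adjusted p = 0.0576 in limma).

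The probe sequences that carry the results are shown here, because the array reads each keratin through 1 or 2 short stretches of its transcript. Probe positions are those of the array files, on mm9 (NCBI37), and the sequences are in the probe's own direction, from 5′ to 3′. Of the brightest probes of Krt5, Krt8 and Krt17 only the last 30 bases are given, with the letters AATAAA in capitals, which are those of the common polyadenylation signal. Where these probes lie in their transcripts was not determined. These letters stood in 12.6% of the 39429 probes as given and in 4.0% on the opposite strand, and in 3 of the 13 keratin probes as given. The probes of Krt14 and Krt7, which showed the second largest increase and the largest called decrease among the 10 members, are given whole. The Krt14 interval on mm9 is longer than the probe itself. The dimmer probes of Krt8 and Krt5 are shown to set them against the brighter ones.
Krt17, chromosome 11, 100117535 to 100117594, last 30 bases: ttctgaacactgaAATAAAtgaccatggtg
Krt14, chromosome 11, 100064683 to 100065288: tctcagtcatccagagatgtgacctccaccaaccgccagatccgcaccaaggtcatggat
Krt5, chromosome 15, 101537514 to 101537573, last 30 bases: tgacttcctccagagtctgtccAATAAAat
Krt5 second probe, chromosome 15, 101542056 to 101542115: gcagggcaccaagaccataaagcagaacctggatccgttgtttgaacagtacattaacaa
Krt8, chromosome 15, 101827138 to 101827197, last 30 bases: aaAATAAAgcctcagctggctctgtcaact
Krt8 second probe, chromosome 15, 101828827 to 101828886: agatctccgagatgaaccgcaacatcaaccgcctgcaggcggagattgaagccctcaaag
Krt7, chromosome 15, 101253718 to 101253777: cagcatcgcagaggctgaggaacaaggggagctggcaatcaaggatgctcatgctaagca
Keratin genes resemble each other, so each keratin probe was compared with the probes of all other genes. Of the 13, 8 shared no run of 14 or more bases with a probe of another gene, and the longest run in the other 5 was 14 or 15 bases. How far a probe binds other keratin transcripts cannot be read from the probe letters alone.

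Of the 10 keratins, 6 were higher on the arrays labelled Pak1-/- at an adjusted p of 0.05 in limma, 1 was lower and 3 did not pass. Over all 21957 genes tested, 22.8% were higher and 28.3% were lower by the same rule. The higher keratins were Krt5, Krt14, Krt15, Krt17, Krt8 and Krt18, the lower one was Krt7, and Krt6a, Krt6b and Krt19 did not pass. The median difference over the 10 was 0.39 log2, against -0.055 over all genes tested, and it was 0.17 by 75th percentile scaling and 0.16 with the processed signal scaled the same way. No overlap between the groups was seen for 8 of the 10 keratins, which is close to the 77.6% of all genes. All 10 passed the filter on dim probes, 8 of them well above background on all 4 arrays and Krt6a and Krt19 on 3. No keratin probe was saturated. In whole cultures, a change in the share of cells of a type and a change in RNA per cell cannot be told apart.

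**Figure D1:**
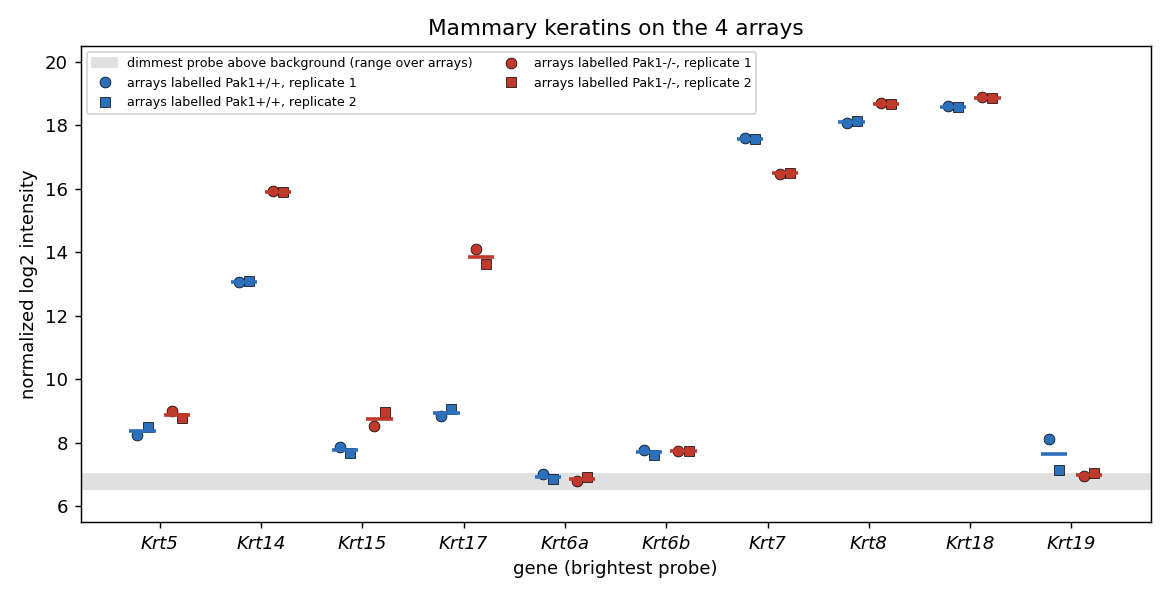
Normalized log2 intensity of the brightest probe of each of the 10 keratins on the 4 arrays, with each point 1 array, the groups in different colours, short lines at the group means and a grey band for the dimmest probes well above background. Krt17 and Krt14 show the widest gaps, at 13.64 to 14.09 against 8.85 to 9.05 and at 15.89 to 15.93 against 13.05 to 13.10, and Krt7 is the called keratin whose points labelled Pak1+/+ lie above. Levels of different genes come from different probes and are not comparable.

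All 4 basal keratins passed the threshold as higher, beside 22.8% higher among all genes tested, with the call of Krt5 lost under 3 of 14 alternatives. Krt17, a type I keratin of basal cells, skin appendages and healing epithelium, was read at 14.09 and 13.64 log2 on the arrays labelled Pak1-/- and at 8.85 and 9.05 on those labelled Pak1+/+. The groups lay far apart compared with the spread inside each. The difference was 4.92 log2, or 30.2-fold (SE 0.18, 95% interval 4.45 to 5.38, adjusted p = 0.000148 in limma), the 64th largest increase among the 21957 genes tested. Before any normalization the mean spot intensity of this probe was 16412 and 13222 against 455 and 496.

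Krt14, the type I partner of Krt5 in basal cells, was read at 15.93 and 15.89 against 13.05 and 13.10 log2. Both replicates of a group were nearly the same, and the gap between groups was 2.83 log2, or 7.12-fold (SE 0.07, 95% interval 2.65 to 3.01, adjusted p = 7.51e-05 in limma). This was the 241st largest increase. Krt15, a type I keratin of the basal layer, was read at 8.52 and 8.98 against 7.86 and 7.68, with more spread between the replicates labelled Pak1-/- than Krt14 showed. Its difference was 0.98 log2, or 1.97-fold (SE 0.18, 95% interval 0.51 to 1.45, adjusted p = 0.0104 in limma).

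Krt5, the type II partner of Krt14, differed much less than Krt14 did. Its brightest probe was read at 8.99 and 8.77 against 8.26 and 8.50 log2, a difference of 0.50, or 1.41-fold (SE 0.13, 95% interval 0.17 to 0.83, adjusted p = 0.0278 in limma). The groups did not overlap, with 8.77 the lower value labelled Pak1-/- and 8.50 the higher value labelled Pak1+/+. The call did not hold without Pak1-/- replicate 1 (0.39, adjusted p = 0.115 in limma) or without Pak1+/+ replicate 1 (0.38, adjusted p = 0.10 in limma). The second Krt5 probe, which starts 4.54 kb away on mm9, was at 6.50 and 6.35 against 6.37 and 6.44 and had no array with signal well above background, so that it was not tested. The Krt5 call therefore rests on the 1 probe.

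The inducible keratins did not pass the threshold. Krt6a was read at 6.80 and 6.93 against 7.02 and 6.85 log2, at low signal and not well above background on Pak1+/+ replicate 2. The groups overlapped, and the difference was -0.070 (95% interval -0.33 to 0.19, adjusted p = 0.582 in limma). Krt6b, from the neighbouring near-identical gene, was read at 7.74 and 7.73 against 7.78 and 7.62 by its brighter probe. Here too the groups overlapped, with a difference of 0.037 (95% interval -0.19 to 0.26, adjusted p = 0.745 in limma). The dimmer Krt6b probe was well above background on 2 of 4 arrays (replicate 1 of each group) and was read at 7.38 and 6.87 against 7.35 and 6.71. Its difference was 0.094 (95% interval -0.63 to 0.82, adjusted p = 0.797 in limma). Which of the near-identical copies bound these probes is uncertain. The intervals of the brighter probes leave out increases of the size seen for Krt14 or Krt17. Decreases of that size could not have been read from these levels, so nothing is concluded about them. The dimmest probes well above background lay at 6.55 to 7.03 log2 across the arrays, not far below both genes. Under the alternatives Krt6a stayed between -0.15 and 0.015 and Krt6b between -0.044 and 0.12.

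The keratins of simple and luminal epithelium did not move as 1 group, with 2 higher, 1 lower and 1 not past the threshold. Among all genes tested, 22.8% were higher and 28.3% lower, and 1 of the 2 higher keratins, Krt18, passed under 7 of 14 alternatives. Krt7, a type II keratin of ductal and other simple epithelia, was read at 16.46 and 16.51 against 17.59 and 17.57 log2. Replicates differed by far less than the groups did, and the level on the arrays labelled Pak1-/- was 2.14-fold lower, a difference of -1.10 (SE 0.07, 95% interval -1.28 to -0.92, adjusted p = 0.000555 in limma). The mean spot intensity before normalization was 79616 and 91901 against 221853 and 212634. Krt7 is type II, as are Krt5 and Krt8, and it was the only one of the 10 that was called lower.

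Krt8, the type II keratin of simple epithelium, was read at 18.69 and 18.68 against 18.09 and 18.14 log2 by its brighter probe. This was an increase of 0.57, or 1.49-fold (SE 0.07, 95% interval 0.39 to 0.75, adjusted p = 0.00292 in limma). The second Krt8 probe, which starts 1.69 kb away and has another sequence, was read at 17.05 and 17.04 against 16.54 and 16.50. Its difference was 0.53 (SE 0.07, 95% interval 0.35 to 0.70, adjusted p = 0.00361 in limma), so that both probes gave nearly the same size. Krt18, the type I partner of Krt8, was read at 18.88 and 18.85 against 18.61 and 18.57, a difference of 0.27, or 1.21-fold (SE 0.07, 95% interval 0.094 to 0.45, adjusted p = 0.0267 in limma). Before normalization the groups overlapped for Krt18, with mean spot intensities of 425716 and 468380 against 441372 and 426285.

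The Krt8 and Krt18 differences depended on how the arrays were put on 1 scale. With each array scaled to its 75th percentile in place of quantile normalization, the Krt18 difference was 0.041 (adjusted p = 0.689 in limma) and that of Krt8 was 0.31 (adjusted p = 0.0287 in limma). With Agilent's processed signal scaled the same way, Krt18 was at 0.037 (adjusted p = 0.72 in limma) and Krt8 at 0.27 (adjusted p = 0.0603 in limma). With cyclic loess, Krt18 was at 0.36 (adjusted p = 0.0161 in limma) and Krt8 at 0.61 (adjusted p = 0.00387 in limma). The 1189 genes with a mean log2 intensity of at least 16, a range that holds Krt7, Krt8 and Krt18, had a median difference of -0.060 by quantile normalization, -0.30 by percentile scaling, -0.31 with the processed signal and -0.037 by cyclic loess, while the median over all genes tested was -0.055, -0.072, -0.086 and -0.00081. Krt18 also did not pass when any 1 of the 4 samples was left out (0.26 to 0.29, adjusted p = 0.059 to 0.138 in limma).

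Krt19, a type I keratin without a tail domain that is found in luminal cells, was read at 6.94 and 7.05 against 8.13 and 7.14 log2. The groups did not overlap, but the replicates labelled Pak1+/+ lay further apart than the groups did at their nearest, and Pak1+/+ replicate 2 was not well above background. The difference of -0.64 (SE 0.33, 95% interval -1.52 to 0.23) did not pass (adjusted p = 0.171 in limma). Without Pak1+/+ replicate 2 it was -1.13 (adjusted p = 0.00405 in limma), and without Pak1+/+ replicate 1 it was -0.15, so the value rested on the single bright array.

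**Figure D2:**
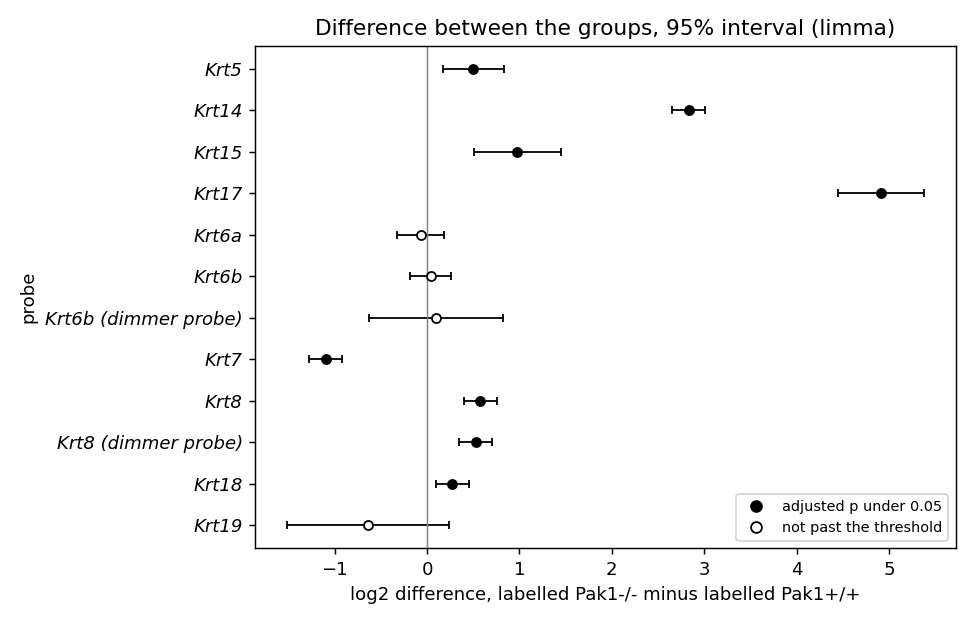
Difference in normalized log2 intensity, labelled Pak1-/- minus labelled Pak1+/+, for each tested probe of the 10 keratins, with 95% intervals from limma and filled points past the threshold. The basal keratins lie to the right of 0, from 0.50 for Krt5 to 4.92 for Krt17, the inducible keratins have intervals that cross 0, and among the luminal keratins Krt7 lies at -1.10 and both Krt8 probes lie near 0.5.

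The filament partners were also set side by side, without a test of the difference within a pair. Krt14 was higher by 2.83 log2 while its partner Krt5 was higher by 0.50, and the intervals of these differences (2.65 to 3.01 and 0.17 to 0.83) do not meet. For Krt8 and Krt18 the differences were 0.57 and 0.27, with intervals that overlap. Among type I members 4 of 5 were higher and none was lower, the exception being Krt19, and among type II members 2 were higher, 1 was lower and 2 did not pass, beside 22.8% higher and 28.3% lower among all genes tested. The difference between the types was not tested, and the type I count includes Krt18, which passed under 7 of 14 alternatives. Krt14, Krt15 and Krt17 are at once type I, basal and on chromosome 11, so that type, role and position cannot be told apart for them.

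**Figure D3:**
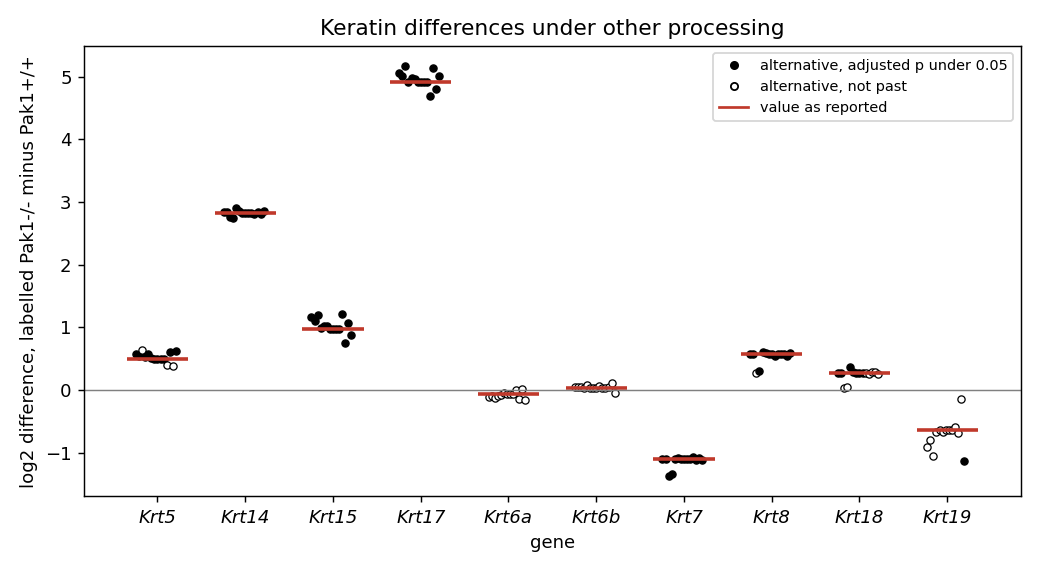
Difference in log2 intensity (labelled Pak1-/- minus labelled Pak1+/+) of each keratin as reported (line) and under the alternative settings (1 point each, filled where the adjusted p is under 0.05). Krt14 stays between 2.75 and 2.90 and Krt17 between 4.69 and 5.17, Krt7 stays between -1.37 and -1.07, and the points of Krt18 reach down to 0.037.

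The other keratins on the array were set beside the 10. There were 42 further genes named Krt and a number, of which 23 were tested: 5 were higher, 7 were lower and 11 did not pass, with a median difference of -0.14 (-0.043 with cyclic loess and -0.049 without Pak1+/+ replicate 1). These counts are close to the 22.8% higher and 28.3% lower among all genes, so the genes named next describe which keratins were called and show nothing particular to the family. Another 13 stood near background on every array. The higher ones were all type I genes of chromosome 11. Krt42 was read at 11.38 and 11.38 against 8.65 and 8.85 (difference 2.63, SE 0.09, adjusted p = 0.000145 in limma). Krt13, a keratin of internal stratified epithelia, was read at 11.56 and 11.41 against 9.70 and 9.94 (1.66, SE 0.12, adjusted p = 0.000729 in limma). Krt16, the type I partner of Krt6a and Krt6b in stressed skin, was higher as well, at 12.65 and 12.34 against 11.01 and 11.07 (1.46, SE 0.12, adjusted p = 0.00115 in limma), although neither Krt6 gene passed. Krt9, a keratin of palm and sole skin, differed by 1.50 (adjusted p = 0.00119 in limma). Krt27, a hair follicle keratin that was not well above background on the arrays labelled Pak1+/+, was at least 1.26-fold higher (adjusted p = 0.00429 in limma), but it passed the filter on dim probes only through the arrays labelled Pak1-/-.

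The lower ones included 4 of the 6 tested hair keratins Krt81 to Krt86 of chromosome 15. Krt83 was read at 7.52 and 7.62 against 9.35 and 9.30 (difference -1.76, adjusted p = 0.000229 in limma), and Krt81 at 11.81 and 11.94 against 13.42 and 13.50 (-1.58, adjusted p = 0.000365 in limma). Krt84 differed by -1.03 (adjusted p = 0.00163 in limma), and Krt85 by -0.78 (adjusted p = 0.00189 in limma) by its brightest probe. The other Krt85 probes gave -2.30 and -0.27, and the probes bearing this name lie at 3 separate places on chromosome 15, starting at 101261695, 101307819 and 101346117, so that the name is uncertain for some of them. Krt10, a keratin of suprabasal epidermis, differed by -1.38 (adjusted p = 0.000479 in limma), Krt23 by -1.30 (SE 0.26, adjusted p = 0.0134 in limma) and Krt79 by -0.33 (adjusted p = 0.0233 in limma). The Krt81 and Krt83 probes are shown because they are near copies, with the bases that differ in capitals.
Krt81, chromosome 15, 101290583 to 101290642: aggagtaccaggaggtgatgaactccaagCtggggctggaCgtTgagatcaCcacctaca
Krt83, chromosome 15, 101263556 to 101263615: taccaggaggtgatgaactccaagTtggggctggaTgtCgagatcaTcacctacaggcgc
Over 55 aligned bases, 51 were identical and 4 differed, so that the signals of these 2 genes may be mixed and count as uncertain.

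In the order of the probes along the chromosomes, the higher and the lower keratins lay in stretches. From Krt13 to Krt42 on chromosome 11 (99982471 to 100128311, 145.8 kb), 8 keratins were tested and 7 were higher, namely Krt13, Krt15, Krt9, Krt14, Krt16, Krt17 and Krt42, with Krt19 the one that did not pass. From Krt7 to Krt84 on chromosome 15 (101253718 to 101355517, 101.8 kb), 6 were tested and 5 were lower, namely Krt7, Krt83, Krt81, Krt85 and Krt84, with Krt86 at -0.28 (adjusted p = 0.0505 in limma). Of these 5, Krt81 and Krt83 may share signal and the name of Krt85 is uncertain, which leaves Krt7 and Krt84 as lower genes without such a doubt. Over the whole keratin clusters, 8 of 14 on chromosome 11 were higher and 2 lower, and 3 of 19 on chromosome 15 were higher and 6 lower. The 8 include Krt27, which passed the filter on dim probes only through the arrays labelled Pak1-/-, so that its inclusion favoured a higher call. Among all genes tested, 22.8% were higher and 28.3% lower, and the lower count over the chromosome 15 cluster is close to that share. The ends of both stretches were chosen after the values had been seen, so they are a description without a test.

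**Figure D4:**
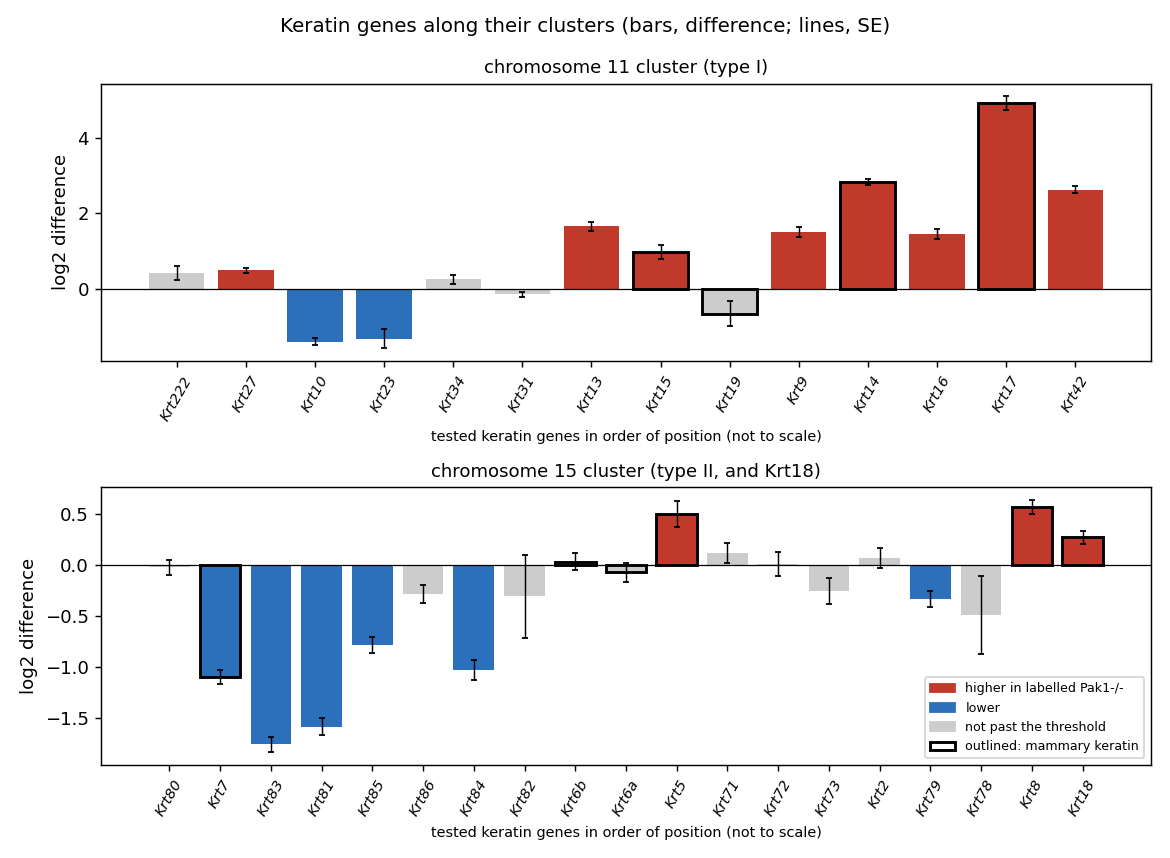
Difference in log2 intensity (labelled Pak1-/- minus labelled Pak1+/+) of each tested keratin as a bar, in the order of its probe along chromosomes 11 and 15 and not to scale, with lines for the SE, colours for the call and outlines for the 10 mammary keratins. The vertical scales of the panels differ. From Krt13 to Krt42 all bars but that of Krt19 lie above 0, and from Krt7 to Krt84 all bars lie below 0.

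Genes that work with keratins showed no common direction across the lists that follow, whose counts stand beside 22.8% higher and 28.3% lower among all genes. Of 9 tested linker genes, which tie keratin filaments to desmosomes and to the cell's envelope, 3 were higher, 2 were lower and 4 did not pass (median 0.040). Eppk1 (epiplakin, which binds keratin bundles) was higher by 0.98 (adjusted p = 0.0152 in limma) and Pkp2 (plakophilin of desmosomes) by 0.81 (adjusted p = 0.00784 in limma). Ppl (periplakin) and Evpl (envoplakin) were lower, at -0.58 (adjusted p = 0.00383 in limma) and -0.57 (adjusted p = 0.00501 in limma). Of 7 tested non-keratin intermediate filament genes, 3 were higher and 1 was lower. Vim, the vimentin of mesenchymal cells and of many cultured cells, was read at 16.17 and 15.68 against 14.42 and 14.52 (1.45, adjusted p = 0.00329 in limma), Nes (nestin) was higher by 0.93 (adjusted p = 0.0028 in limma), and Lmnb2, a nuclear lamin, was at -0.81 (adjusted p = 0.0025 in limma). Of 8 tested genes of the cornified envelope, the barrier of differentiated skin, none was higher and 3 were lower (median -0.27). Under the alternatives that kept all 4 samples, 0 to 1 were higher and 3 to 5 were lower. Tgm1, the crosslinking enzyme, was at -1.83 (adjusted p = 0.000416 in limma), and Krt10 was as above.

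Markers of basal and luminal cells other than keratins were set beside the keratins in the same way, against the 22.8% of all genes that were higher and the 28.3% that were lower. Of 10 tested basal markers, 7 were higher, 1 was lower (Jag2, at -0.27, adjusted p = 0.0478 in limma, held under 7 of 14 alternatives) and 2 did not pass, with a median of 0.49. The count of higher basal markers was 4 without Pak1-/- replicate 1, 4 without Pak1+/+ replicate 2 and 5 without Pak1+/+ replicate 1, and none was lower when any 1 sample was left out. One of the 7, Snai2, passed the filter on dim probes only through the arrays labelled Pak1-/-, so that its inclusion favoured a higher call. Oxtr, the oxytocin receptor of myoepithelial cells, was read at 12.65 and 12.10 against 8.47 and 8.59 (3.84, adjusted p = 0.000333 in limma), and Acta2, their smooth muscle actin, at 10.41 and 9.87 against 8.39 and 8.51 (1.69, adjusted p = 0.00257 in limma). The summed normalized intensity of the basal markers was 148483 to 176282 on the arrays labelled Pak1-/- and 127660 to 130058 on the others, mostly from Itga6, an integrin of basal cells whose call (0.35, adjusted p = 0.0479 in limma) held under 5 of 14 alternatives, with Myh11 and Lgr5 near background on every array. Of 15 tested luminal markers, 4 were higher, 2 were lower and 9 did not pass (median 0.023), and the lower count was 1 to 4 under the alternatives. Prom1, a surface protein of luminal cells, was higher by 2.50 (adjusted p = 0.000112 in limma) and Foxa1, a luminal transcription factor, by 1.71 (adjusted p = 0.00122 in limma), whereas Kit, a receptor of luminal progenitors, was at -0.61 (adjusted p = 0.00358 in limma) and Elf3, an epithelial transcription factor, at -0.32 (adjusted p = 0.0438 in limma), a call that held under 3 of 14 alternatives. The luminal sums overlapped (338317 to 380918 against 345870 to 362558), and Pgr was near background on every array.

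Markers of other cells that a tumour culture can hold were counted as well, and their part in the keratin differences was not tested. Their lists are short, and the counts are to be read beside the 22.8% higher and 28.3% lower among all genes. Of 9 fibroblast markers, 4 were tested and 2 were higher: Postn, which was at least 10.4-fold higher (not well above background on the arrays labelled Pak1+/+, adjusted p = 0.00178 in limma), and Col1a1, by 1.12 (adjusted p = 0.00507 in limma). Postn passed the filter only through the arrays labelled Pak1-/-. The fibroblast sum was 1727 to 2955 against 815 to 847, and 920 to 1127 against 741 to 767 without Postn. With signal required on all 4 arrays, 3 were tested and 1 was higher, with a median of 0.025 in place of 0.57. Col3a1, Pdgfrb, Dcn and Lum were near background on every array. Of 8 leukocyte markers, 6 were tested, none was higher and 2 were lower, Cd14 at -1.70 (adjusted p = 0.000535 in limma) and Ptprc at -0.45 (adjusted p = 0.00556 in limma), with Lyz2 near background on every array. Their sum, 105912 to 120829 against 199189 to 215024, followed Cd14, and without Cd14 it was 51972 to 74632 against 43121 to 47636, which in turn was mostly Itgam, a gene that did not pass (0.49, adjusted p = 0.11 in limma). None of 3 tested endothelial markers passed (sums 9840 to 10223 against 8909 to 10717, with Emcn and Tek near background on every array), and none of the 4 adipocyte markers was bright enough to test.

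The genes nearest to the extreme keratins were found over the 4 arrays by the Euclidean distance of log2 values, after each gene's own mean was subtracted. Nearest to Krt17 were Timp1, an inhibitor of matrix metalloproteinases, at a distance of 0.174 (13.06 and 12.61 against 7.61 and 7.89), Plcd1, a phospholipase C, at 0.231, and Zmym6 at 0.247. Zmym6 was well above background only on the 2 arrays labelled Pak1-/-, so its distance rests in part on values near background. Nearest to Krt7 were Alg13 at 0.0227, Cisd1 at 0.0240 and Gm5168 at 0.0259. With 4 arrays in 2 groups, such a distance mainly compares the size of the group difference. Among the 10 keratins themselves the closest pair was Krt6a with Krt6b, at 0.148, followed by Krt5 with Krt8, at 0.215.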

How the data were processed

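The members and gene lists were chosen with earlier results of these data known. The deposited scanner files carry each spot's intensity, its local background and a processed intensity, written by Feature Extraction 9.5 and not yet normalized. A deposited log2 table of the authors, filled in 24008 of 39485 rows and with no stated offset, served as an alternative. From the scanner files, background was corrected with normexp (offset 50), and the log2 values of the 43020 non-control spots were quantile normalized, as the methods name. Outlier spots were set aside and spots averaged per probe. The 27215 probes (69%) that stood well above background on 2 or more arrays were tested with lmFit and eBayes of limma 3.58.1 (R 4.3.3), two-sided, with Benjamini-Hochberg adjustment over these probes and a threshold of 0.05. Differences are labelled Pak1-/- minus labelled Pak1+/+. A group in which a probe was not well above background on both arrays got a bound: the mean of the brighter group against, per array, the larger of its own value there and the dimmest probe well above background. Residual degrees of freedom were 2 and the prior added 2.63. An exact permutation test of 2 against 2 cannot go below p = 0.333 and was not run. The number of arrays limits the precision.

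Named were all 10 keratins, every other keratin past the threshold, the 2 largest increases and decreases past it in each list, the 3 nearest genes of the extreme keratins, and Pak1 and Erbb2. Krt86, Epcam, Snai2, Itga6, Itgam and the markers without signal were named after their values had been seen. Of the 13 keratin probes, 12 carried an accession that gives the same symbol in RefSeq (GRCm38.p6, used for names only). Exon annotation of mm9 was not used here. "Near background" means that no array read the probe well above background. Summed intensities add the tested genes of a list on the linear normalized scale. Alternatives changed the offset, signal, scaling, filter, probe rule, threshold and block, used the deposited table, or left out each sample. On simulated data for this comparison (27215 probes), 52 of 100 probes changed by 1 log2 and 79 of 100 changed by 2 log2 were recovered. No other probes were changed there, a far smaller share than the 11216 of 21957 genes called in the data. The adjustment was therefore stricter in the simulation, and these counts do not give the share of changes missed in the data.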

Additional observations from a re-analysis of the deposited data

How the results depend on the processing

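Krt14, Krt15, Krt17 and Krt7 kept their direction and passed an adjusted p of 0.05 under all 14 alternatives that kept this threshold (2.75 to 2.90, 0.74 to 1.21, 4.69 to 5.17 and -1.37 to -1.07 log2). Krt8 passed under 13, Krt5 under 11 and Krt18 under 7, and Krt19 under 1 of 13. The count of higher keratins, 6, was 3 with the processed signal scaled to the 75th percentile and 3 at an adjusted threshold of 0.01 (Krt14, Krt17 and Krt8, with Krt15 at an adjusted p of 0.0104 in limma), and 4 to 5 when a sample was left out; the count of lower keratins, 1, was 1 to 2 when a sample was left out. The processed signal left Krt5 at 0.64 (adjusted p = 0.0581 in limma). Leaving out a sample put Krt6a between -0.15 and 0.015 (the latter without Pak1+/+ replicate 1) and Krt6b between -0.044 (without Pak1+/+ replicate 2) and 0.12, none past the threshold. Genes past the threshold numbered 11216, and 7135 at an adjusted threshold of 0.01, which follows from the stricter threshold, and 8241 to 9694 when a sample was left out, with the lone sample of a group assumed to vary like the other group. Requiring signal well above background on all 4 arrays gave no value for Krt6a or Krt19. The cause of the other changes was not tested.

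Samples with the same number did not deviate together (r of the replicate differences between groups -0.028). With the number as a replicate block, 10516 genes passed, 5 keratins were higher and 1 was lower, and Krt18 was at 0.27 with adjusted p = 0.0564 in limma. Dim probes, such as those of Krt6a and Krt19, are limited by signal over background.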
